A study of Mus musculus with 27 samples.

Results

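Of 18193 genes read on arrays from mouse embryonic fibroblasts, 17 were at or near the background level in the wild-type line and clearly above it in a line without PKBalpha and in the line labelled R. Akt1 encodes PKBalpha, a protein kinase of growth and survival signalling. For each gene the brightest probe set was used, that is the group of probes whose summary is 1 intensity value on each array. Genes were chosen by their intensity: a gene was taken when its geometric mean intensity was 50 or less over the 9 wild-type arrays and 300 or more over the 9 arrays of each other line. These levels gave 24 genes, of which Rpl39l, Tnmd, Zic1 and 4 Hox genes (Hoxc5, Hoxc6, Hoxc8 and Hoxc9) were left out by name. The difference between the wild type and the other lines is therefore how the genes were chosen, and it is given below as a description without a test.

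The 3 lines were a wild-type line (WT), a PKBalpha knockout line (PKBa -/-) and a line labelled as the knockout with PKBalpha put back (R). Untreated cells of each line were profiled beside cells taken 4 h and 24 h after a gamma dose of 10 Gy. The labels give 3 biological replicates to each of the 9 groups, 27 arrays in all. All cells were labelled female, at passage 45, grown with 10% serum and kept in culture for 24 h before irradiation. Each genotype was 1 line, so replicates give the spread within a line and none between lines of a genotype, and genotype cannot be told apart from any other difference between the lines. Groups follow the sample titles, with which the descriptions of 6 irradiated WT samples (given there as untreated) disagree.

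A gene that a cell does not use is often held off by its chromatin. In one route, methyl groups on cytosines of CpG dinucleotides at the start of a gene mark it for repression, and in another the Polycomb proteins methylate a histone over developmental genes. Fibroblasts from different places in the body keep different sets of such genes off, and a cell line carries its set through many divisions. Among the 17 genes were developmental regulators, matrix proteins, secreted signals and receptors, genes best known from neurons, and genes of cell death.

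The 250 bases before the annotated start are shown for 5 of the 17, from RefSeq on mouse build GRCm38.p6, 5′ to 3′ on the strand of the gene, with each CpG in capitals. Sox11 has the most CpG dinucleotides of the 5, Dpt and Slc5a7 are poor in them, and Ripk3 and Rassf6 are the genes that differed most between PKBa -/- and R. The Sox11 stretch (chr12:27342719-27342968, minus strand) holds 17 CpG, that of Dpt (chr1:164796413-164796662, plus strand) 3 and that of Slc5a7 (chr17:54299035-54299284, minus strand) 1. The Ripk3 stretch (chr14:55788858-55789107, minus strand) holds 8 and the Rassf6 stretch (chr5:90640528-90640777, minus strand) 10.
Sox11: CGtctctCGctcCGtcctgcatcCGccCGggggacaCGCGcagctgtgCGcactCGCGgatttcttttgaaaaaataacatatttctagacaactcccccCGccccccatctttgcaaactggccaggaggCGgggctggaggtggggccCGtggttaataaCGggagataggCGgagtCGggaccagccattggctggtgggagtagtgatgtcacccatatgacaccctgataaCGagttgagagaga
Dpt: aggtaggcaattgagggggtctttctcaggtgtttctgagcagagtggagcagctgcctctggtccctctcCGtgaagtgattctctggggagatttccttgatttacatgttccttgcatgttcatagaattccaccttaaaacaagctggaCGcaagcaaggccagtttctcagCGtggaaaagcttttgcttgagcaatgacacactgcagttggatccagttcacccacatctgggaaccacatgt
Slc5a7: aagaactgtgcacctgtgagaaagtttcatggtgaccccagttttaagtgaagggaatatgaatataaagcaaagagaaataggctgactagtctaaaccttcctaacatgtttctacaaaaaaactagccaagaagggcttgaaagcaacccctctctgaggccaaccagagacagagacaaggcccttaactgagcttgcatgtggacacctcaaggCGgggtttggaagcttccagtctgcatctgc
Ripk3: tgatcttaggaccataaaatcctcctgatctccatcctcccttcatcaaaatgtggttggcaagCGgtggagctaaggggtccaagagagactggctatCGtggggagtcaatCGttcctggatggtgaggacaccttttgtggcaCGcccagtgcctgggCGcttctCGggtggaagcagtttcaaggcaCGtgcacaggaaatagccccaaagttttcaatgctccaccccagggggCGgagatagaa
Rassf6: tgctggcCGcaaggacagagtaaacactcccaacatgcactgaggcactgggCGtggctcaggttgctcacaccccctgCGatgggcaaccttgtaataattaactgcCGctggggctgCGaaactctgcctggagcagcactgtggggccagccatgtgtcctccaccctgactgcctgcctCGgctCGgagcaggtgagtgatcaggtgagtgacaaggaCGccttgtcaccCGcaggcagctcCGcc

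The deposited intensities had been scaled to a common trimmed mean, and the background level was taken as 48.3. That is the highest of 243 values from 9 probe sets of the Y-linked genes Eif2s3y, Uty and Kdm5d, which female cells lack. Akt1 read 3549 in WT, 21.5 in PKBa -/- and 21.0 in R (geometric means of 9 arrays). Its brightest probe set was thus below background in the line in which PKBalpha is labelled as put back. That value covers neither other parts of the transcript nor the protein, so whether PKBalpha was made in R was not tested. All 12 measured fibroblast markers were above background in each line. All 4 mesothelial markers were above it in WT, with a summed intensity of 15932 to 30869, and none was in PKBa -/- (57.0 to 145) or R (22.3 to 187). The summed levels of 3 further lists were also higher on every WT array than on every other array. They were 12504 to 24041 in WT, 5019 to 9289 in PKBa -/- and 3795 to 7478 in R for 3 adipocyte markers, with 2 above background in each line. For 6 macrophage markers they were 1032 to 1780, 501 to 742 and 343 to 524, with 4, 3 and 3 above background, and for 6 endothelial markers 259 to 680, 64.9 to 154 and 98.0 to 153, with 1, 0 and 0. Neural and glial markers, 4 measured, summed to 108 to 291 in WT, 478 to 810 in PKBa -/- and 334 to 690 in R, with 1 of the 4 above background in each line. The part of these markers in the results was not tested, and fewer cells that use a gene cannot be told apart from less of its RNA per cell. By the ratio of 3′ to 5′ signal for Gapdh, a sign of RNA or labelling quality, 5 arrays stood apart, 1 in each untreated group, 1 in WT at 4 h and 1 in R at 24 h.

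The low level in WT was at or below background on all 9 arrays for 10 of the 17 genes. For the other 7 at least 1 WT array read above background, and 23 of all 153 WT values did, so the word silent does not hold for every gene. All 306 values of PKBa -/- and R were above background, and for 17 of 17 genes each of these 18 arrays was above the highest WT array, as for 2.39% of all genes. These are the values that chose the genes, so nothing is read from that count. Against the background level, the geometric means were at least 6.72-fold (Mpped2) to 26.4-fold (Sox11) higher in PKBa -/-. In R they were at least 6.35-fold (Rassf6) to 34.1-fold (Slc5a7) higher.

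**Figure D1:**
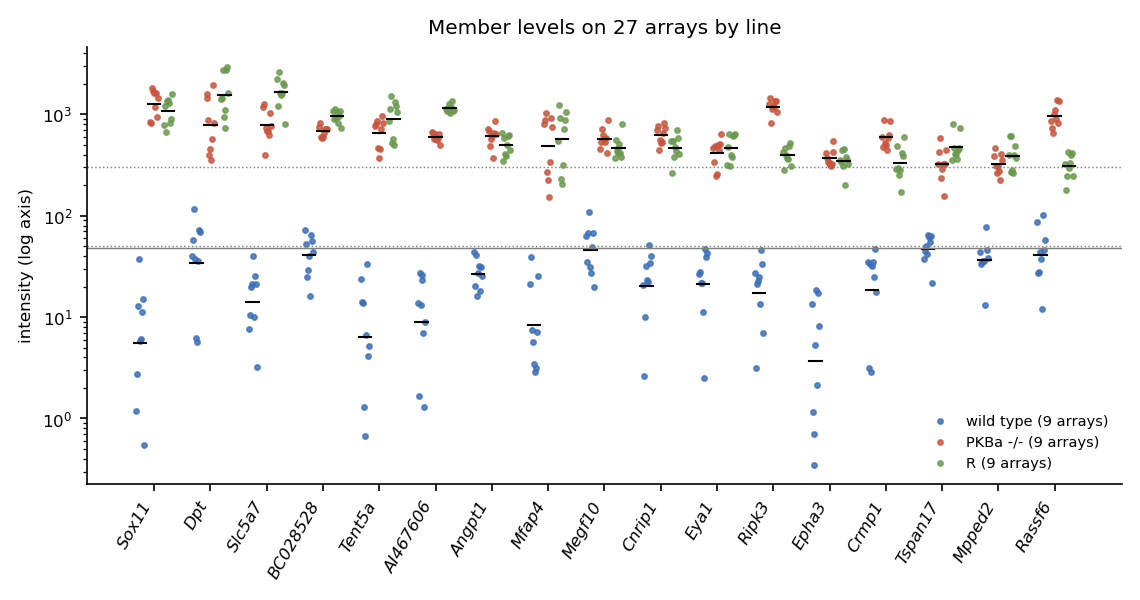
Intensity (log axis) of the 17 genes on 27 arrays, with 9 points per line and a black bar at the geometric mean. The dotted lines are the limits of 50 and 300 that chose the genes and the grey line is the background of 48.3; every red and green point is above every blue point of its gene.

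Sox11 and Eya1 regulate transcription in the embryo. Sox11 is a DNA-binding factor of progenitor cells, and Eya1 is a phosphatase that works as a coactivator in the developing ear, kidney and branchial arches. Sox11 read from 0.544 through a median of 6.08 to 37.0 in WT, 819.8 to 1815 (median 1442) in PKBa -/- and 675 to 1599.8 (median 1197) in R. Eya1 read 2.53 to 46.9 (median 26.8) in WT, 245 to 646 (median 462) in PKBa -/- and 311 to 638 (median 479) in R. No WT array read the brightest probe set of either gene above background. Of 136 measured developmental transcription factors and cofactors outside the Hox clusters, Sox11, Eya1 and the left-out Zic1 had this pattern, and 4 had the opposite one. Over all genes the shares were 0.132%, with those left out by name, and 0.742%, without them. The list was drawn up with earlier results of these data known, so nothing is read from its counts.

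Mfap4 and Dpt encode proteins of the matrix. Mfap4 is a microfibril protein that binds elastic fibre components, and Dpt, dermatopontin, binds decorin and takes part in collagen fibril formation. Mfap4 read 2.89 to 39.5 (median 7.07) in WT, 154 to 1033 (median 749) in PKBa -/- and 206 to 1245 (median 720.4) in R. Dpt read 5.74 to 116 (median 40.5) in WT, 352 to 1957 (median 818) in PKBa -/- and 736 to 2935 (median 1436) in R. Dpt is the less silent of the pair, with 4 of 9 WT arrays above background. Both ranges in PKBa -/- and R were wide, and their lowest values came from 4 h after irradiation.

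Angpt1 encodes a ligand of the endothelial receptor Tie2, and Epha3 and Megf10 encode receptors, for ephrins and for engulfment of dying cells. Angpt1 read 15.98 to 44.0 (median 27.4) in WT, 375 to 859 (median 633) in PKBa -/- and 349.8 to 661 (median 502) in R. Epha3 read 0.351 to 18.7 (median 5.33) in WT, 309 to 540.0 (median 342) in PKBa -/- and 201 to 451 (median 354) in R. For these genes the PKBa -/- and R arrays overlapped and WT stayed below background on every array. Megf10 read 19.6 to 108 (median 49.0) in WT, where 5 of 9 arrays were above background, 414 to 887 in PKBa -/- and 371 to 806 in R. Of 112 measured growth factors and receptors, 1 (Angpt1) belonged to the 17, as did 1 (Epha3) of 88 adhesion and guidance receptors and 1 (Mfap4) of 106 matrix genes outside the collagens, a list that does not hold Dpt. Over all genes, with those left out by name, the share was 0.132%, and a count of 1 in lists of this size says little.

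Slc5a7 is the choline transporter of cholinergic nerve endings, Crmp1 carries semaphorin signals in growing axons, and Cnrip1 binds the cannabinoid receptor CB1. Slc5a7 read 3.21 to 39.6 (median 19.9) in WT, 398 to 1257 (median 739) in PKBa -/- and 808 to 2596 (median 1611) in R. The lowest Slc5a7 value of PKBa -/- (untreated) and the lowest of R (24 h) both came from arrays that stood apart by the Gapdh controls. Crmp1 read 2.88 to 46.8 (median 32.0) in WT, 448 to 872 (median 586) in PKBa -/- and 173 to 594 (median 294) in R. Cnrip1 read 2.61 to 51.2 (median 23.4) in WT, 447 to 813 (median 661) in PKBa -/- and 265 to 703 (median 472) in R. These genes are best known from neurons, and their WT values were at or below background but for 1 array of Cnrip1.

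Ripk3 is the kinase that starts necroptosis, a lytic form of cell death, and Rassf6 is a Ras association domain protein linked to apoptosis and the Hippo pathway. Ripk3 read 3.17 to 45.5 (median 22.6) in WT, 825 to 1446 (median 1219) in PKBa -/- and 281 to 516 (median 395) in R. Rassf6 read 12 to 102 (median 43.4) in WT, 655 to 1381 (median 889) in PKBa -/- and 177 to 424 (median 321) in R. In both genes the lines fell in the order WT, R, PKBa -/- with no overlap between any pair of lines.

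Tent5a encodes a poly(A) polymerase that acts on collagen transcripts in bone cells, Mpped2 a metallophosphoesterase, and Tspan17 a tetraspanin that binds the protease ADAM10. Tent5a read 0.674 to 33.2 (median 6.71) in WT, 367 to 963 (median 762) in PKBa -/- and 500.4 to 1513 (median 1059) in R. Tspan17 read 21.8 to 64.0 in WT, where 5 of 9 arrays were above background, and 156 to 589 in PKBa -/-. Mpped2 read 13.2 to 76.7 in WT, 224 to 461 in PKBa -/- and 263 to 607 in R. BC028528 and AI467606 carry only clone names in the tables used. BC028528 read 16.3 to 73.0 in WT, with 4 of 9 arrays above background, 590.4 to 826 in PKBa -/- and 739 to 1137 in R. AI467606 read 1.28 to 27.4 in WT, 497 to 665 in PKBa -/- and 1024 to 1355 in R, without overlap between any of the lines.

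Just inside the limit of 50 in WT were Tspan17 (46.8), Megf10 (45.8) and Rassf6 (41.1), and just outside it Sytl2 (53.1), Abi3bp (54.4) and Cyp2c55 (56.2). Just inside the limit of 300 in PKBa -/- were Mpped2 (325), Tspan17 (325) and Epha3 (369), and just outside it Sorbs2 (296), Zfhx4 (284) and Chst10 (284). In R the nearest inside were Rassf6 (307), Crmp1 (332) and Epha3 (343), and the nearest outside En1 (283), Srpx2 (262) and Fibin (176). The opposite pattern, 300 or more in WT and 50 or less in both other lines, was held by 135 genes. That count leaves out Rpl39l, Tnmd, Zic1, Hox and collagen genes. A gene at 50 or less in R but 300 or more in both other lines was found in 2 cases (Ptprz1 and Hp), and none was at 50 or less in PKBa -/- only.

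Of the 17 genes, 9 had 1 probe set and 8 had several, with 15 probe sets that the choice did not use. By geometric mean 14 of the 15 were above background in PKBa -/- and R and at or below it in WT, and the last one, an Eya1 probe set, was at or below it in all lines. Some of the 14 were only a little above it, with 1 or more arrays of a line at or below it. In PKBa -/- and R, a Cnrip1 probe set read 57.6 and 69.9, an Epha3 probe set 67.5 and 59.9, and another Eya1 probe set 78.6 and 66.5. That Cnrip1 probe set was above background on 6 of 9 PKBa -/- arrays, and that Eya1 probe set on 7 of 9 R arrays. The second Angpt1 probe set was brighter (361 and 205), but its lowest R array read 9.69. Sox11 had 5 of the 14, which read 7.002 to 20.2 in WT, 149 to 547 in PKBa -/- and 121 to 416 in R. The second AI467606 probe set read 1.63 in WT, 132 in PKBa -/- and 289 in R. The second Tspan17 probe set read 25.9 in WT, 433 in PKBa -/- and 565 in R. In WT, 3 of 9 arrays of that probe set were above background. So was 1 WT array each of a Sox11 probe set and of the second Cnrip1 and Mpped2 probe sets. These values come from the same RNA as the choice of the genes and are given without a test.

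**Figure D2:**
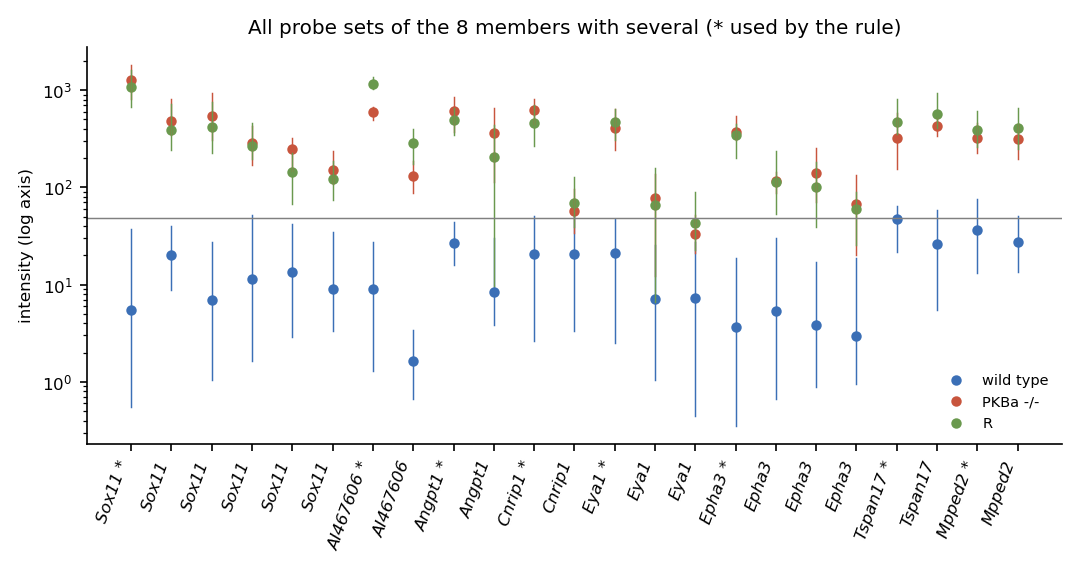
Geometric mean intensity (points, log axis) and the range over 9 arrays (lines) of every probe set of the 8 genes with several, by line; asterisks mark the probe sets that chose the genes and the grey line is background. By geometric mean, 14 of the 15 without an asterisk are above background in PKBa -/- and R and at or below it in WT, and some of the ranges cross it.

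The 17 genes lay on 14 chromosomes, and no pair were neighbours. Of the 68 measured genes nearest to them in the RefSeq gene order, with 2 on each side, none was a member, and 29 (42.6%) read 300 or more in WT, against 43.8% of all genes. A further 26 were at 50 or less in all 3 lines, as were 6690 of all 18193 genes. Of the 68, 0 were at 50 or less in WT and above 50 in both other lines. That limit leaves out neighbours that differed at higher levels. Rspo2, beside Angpt1, read 181 in WT, 2059 in PKBa -/- and 3779 in R. Egfr, near Cnrip1, went the other way (1334, 306 and 137), as did Atp1b1, beside Dpt (8742, 2032 and 2713). Differences of the neighbours between the lines were not tested.

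A RefSeq promoter window of 300 bases, from 250 before to 50 after the annotated start, was held for 13 of the 17 genes and for 14367 measured genes. None was held for Eya1, Angpt1, Mfap4 or Megf10. Where a gene had several windows, that of the most upstream start was used. This applied to BC028528, Tent5a and Crmp1, with 2 windows each, and to Mpped2, with 3, and their other windows were not looked at. A window was called CpG rich when its GC content was at least 50% and its CpG count at least 0.6 of that expected from its C and G content. By that rule 5 of 13 windows (Sox11, Tent5a, Epha3, Crmp1 and Tspan17) were CpG rich, which is 38.5%, against 54.3% of all measured genes. The share was 48.1% of 106 genes with the opposite pattern, 78.9% of genes at 300 or more in all lines and 23.2% of genes at 50 or less in all lines. The observed over expected CpG ratio ran from 0.0668 in Slc5a7, with 1 CpG in the window, to 1.16 in Tent5a, with 42, and its median of 0.457 compares with 0.675 over all genes. Of the stretches printed above, those of Slc5a7 and Dpt come from windows low in this range (0.0668 and 0.226) and that of Sox11 from a window at 0.82, with Tspan17, Crmp1 and Tent5a higher.

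**Figure D3:**
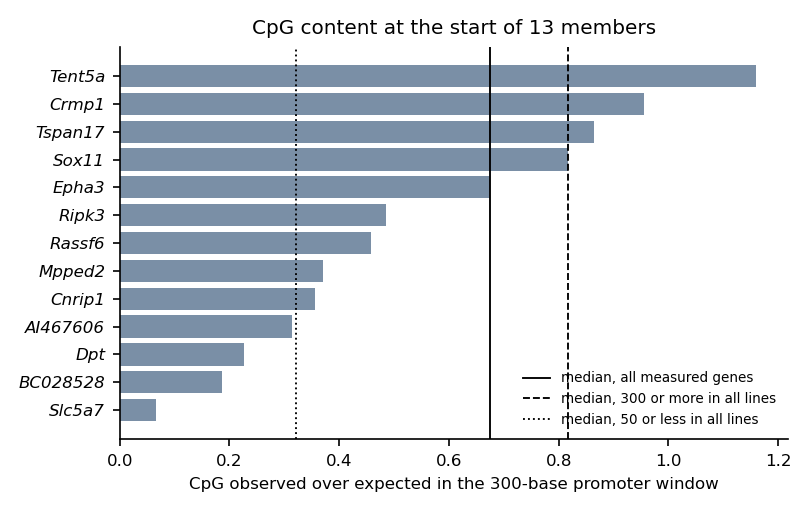
Bars give the CpG observed over expected ratio in the 300-base promoter window of the 13 genes that had one. Vertical lines give the median of all measured genes (0.675), of genes at 300 or more in all lines (0.818) and of genes at 50 or less in all lines (0.321); 4 of the 13 windows are clearly above the first line and 8 are below it.

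Both strands of the same windows were searched for 3 short motifs, and a match describes the letters only. TATAAA, the core of the TATA box, was in 3 of 13 windows (Dpt, Slc5a7 and Tent5a), 23.1% against 9.86% of all measured genes. CCAAT was in 1 (Sox11), 7.69% against 38.4%, and GGGCGG, the core of the GC box, in 7, 53.8% against 54.1%. With 13 windows, 1 window is 7.69%, so these shares are coarse.

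The choice asked only that PKBa -/- and R both read 300 or more, so the difference between them could be tested. Ripk3 and Rassf6 were lower in R than in PKBa -/-, Dpt was higher, and the other genes did not pass the test in the fit over all arrays. Differences are log2 of R over PKBa -/-, averaged over the 3 times, with the standard error of the limma model, and a gene was called at a Benjamini-Hochberg adjusted p below 0.05 over all 18193 genes. Of the 17 genes 3 were called, 1 higher and 2 lower, beside 17.1% of all genes (10.2% higher and 6.93% lower) and 23.4% of the genes at 300 or more in both lines (12.3% higher and 11.1% lower). A count of 3 of 17 is near those shares. The median difference was 0.19 for the 17 genes and 0.06 for all genes.

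Ripk3 read 1261, 1446 and 825 in untreated PKBa -/- cells and 421, 281 and 465 in untreated R cells. At 4 h it read 1123, 1219 and 1167 in PKBa -/- and 395, 369 and 365 in R, and at 24 h 1355, 1364 and 1057 against 489.7, 516 and 311. The R arrays were below the PKBa -/- arrays at each time, by -1.59 ± 0.37 (adjusted p = 0.0040). The call held under all 27 alternatives, with adjusted p from 3.24e-06 to 0.0212.

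Rassf6 read 861, 729 and 655 in untreated PKBa -/- and 321, 177 and 248 in untreated R cells. It read 1018, 1111 and 889 against 424, 295 and 334 at 4 h, and 1381, 827 and 1355 against 395, 417 and 246 at 24 h. R was again lower at each time, by -1.63 ± 0.26 (adjusted p = 0.00017, 4.92e-06 to 0.00153 over 27 alternatives). Dpt was higher in R by 0.99 ± 0.34 (adjusted p = 0.0497), with overlap between the lines. Its call is at the edge, since it passed under 7 of 27 alternatives, with adjusted p from 0.00699 to 0.118.

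The WT arrays enter the shared variance of this fit, and there the genes are dim and scattered. The SD between replicates within groups had a median of 1.04 on the log2 scale in WT (0.52 to 2.31 over the 17 genes), against 0.31 in PKBa -/- (0.14 to 0.60) and 0.38 in R (0.14 to 0.55). Fitted on the 18 arrays of PKBa -/- and R alone, 8 of the 17 genes were called, 5 higher and 3 lower, beside 16.3% of all genes and 21.8% of the genes at 300 or more in both lines. The further genes were Slc5a7, BC028528, Tent5a and AI467606, higher in R, and Crmp1, lower.

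AI467606 read 665, 649 and 576 in untreated PKBa -/- and 1135, 1074 and 1164 in untreated R cells. The other 6 arrays of each line ran from 497 to 646 in PKBa -/- and from 1024 to 1355 in R, so no R array overlapped PKBa -/-. The difference was 0.95 ± 0.08 in the fit on 18 arrays (adjusted p = 4.1e-06) and 0.95 ± 0.41 in the fit on 27 (adjusted p = 0.13), and over 27 alternatives the adjusted p ran from 4.14e-06 to 0.21. In the 18-array fit over all probe sets its second probe set differed by 1.13 ± 0.19 (adjusted p = 0.0015). AI467606, Ripk3 and Rassf6 were the 3 of the 17 whose R and PKBa -/- arrays did not overlap, a pattern that 3.43% of all genes had.

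Slc5a7 was higher in R by 1.09 ± 0.26 in the 18-array fit (adjusted p = 0.0099, 0.00257 to 0.11 over the alternatives). BC028528 was higher by 0.49 ± 0.10 (adjusted p = 0.0032, 0.00316 to 0.29) and Tent5a by 0.45 ± 0.11 (adjusted p = 0.012, 0.0123 to 0.689). Crmp1 was lower by -0.84 ± 0.16 (adjusted p = 0.0028, 0.00284 to 0.35). The R and PKBa -/- arrays overlapped for each of these 4 genes. At single times in the 18-array fit AI467606, Ripk3 and Rassf6 were called untreated, at 4 h and at 24 h, beside 3.4%, 2.95% and 4.52% of all genes, and no other of the 17 was. In the 27-array fit limma called 0, 0 and 1 (Rassf6 at 24 h) beside 3.79%, 3.38% and 5.27%, with 2, 2 and 4 of the 17 at an unadjusted p below 0.05. By their brightest probe sets the remaining 9 genes were not called in either fit, with differences from -0.43 (Cnrip1) to 0.54 (Tspan17). In the 18-array fit over all probe sets, 1 other Sox11 probe set was lower in R by -0.78 ± 0.23 (adjusted p = 0.042). No other probe set of these 9 genes was called. The second Cnrip1 probe set (0.28 ± 0.25) and an Eya1 probe set (-0.24 ± 0.61) had the opposite sign to the brightest.

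**Figure D4:**
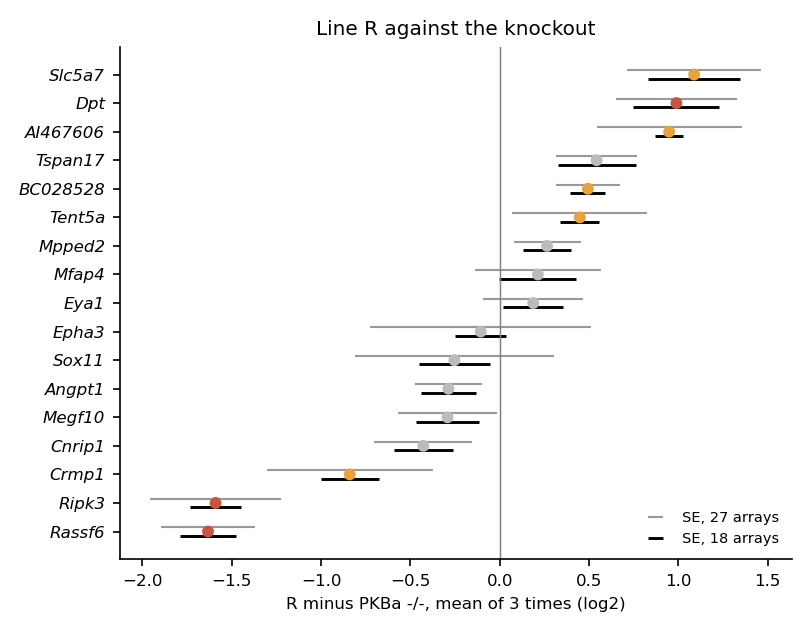
Log2 difference of R minus PKBa -/-, averaged over 3 times, for the 17 genes, with the standard error in the fit on 27 arrays (grey) and on 18 arrays (black). Red points were called in both fits (Dpt, Ripk3 and Rassf6), orange points in the 18-array fit only, and grey points in neither.

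The design text takes untreated cells as the reference for irradiation, and the choice of genes averaged over the times. At 4 h after 10 Gy Mfap4 fell in the mean of PKBa -/- and R. Dpt, Tent5a and Mpped2 did not pass in the fit on 27 arrays and did in the fit on 18, and under 6, 3 and 5 of 22 alternatives in all. The mean of the responses of PKBa -/- and R was called for 1 of 17 genes in the fit on 27 arrays, beside 7.62% of all genes (4.92% lower) and 13.2% of the genes at 300 or more in both lines (8.18% lower). In the 18-array fit 4 were called, all lower, beside 6.63% of all genes (4.31% lower) and 10.9% (6.74% lower) of the genes at 300 or more in both. The response was below 0 for 13 of 17 genes, with a median of -0.27 against -0.03 for all genes. How long the untreated cells stayed in culture is not stated, so culture time and irradiation cannot be told apart.

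Mfap4 read 805, 882 and 1033 in untreated PKBa -/- cells, 270.3, 226 and 154 at 4 h and 339, 926 and 749 at 24 h. In R it read 545, 1245 and 915 untreated, 228, 206 and 317 at 4 h and 720.4, 883 and 1047 at 24 h. All 6 arrays at 4 h were below all untreated and all 24 h arrays of their line. The fall at 4 h was -1.94 ± 0.43 (adjusted p = 0.0097), and it was called under all 21 alternatives that held the gene, with adjusted p from 0.000317 to 0.0316. Taken alone in the 27-array fit, neither line passed (adjusted p = 0.13 in PKBa -/- and 0.15 in R), and limma called 0 of the 17 genes in either line, beside 0.368% and 0.978% of all genes, with 2 of 17 at an unadjusted p below 0.05 in each. In the 18-array fit Mfap4 was called in PKBa -/- (adjusted p = 0.048) and not in R (0.059), and Tent5a in R (0.035) and not in PKBa -/- (0.066), beside 0.247% and 0.363% of all genes.

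Tent5a read 762, 800.0 and 854 in untreated PKBa -/- cells and 461, 367 and 449.7 at 4 h. In R it read 850.2, 1123 and 1513 untreated and 521, 577 and 500.4 at 4 h. The groups did not overlap in either line, and the response was -1.01 ± 0.13 in the 18-array fit (adjusted p = 0.0025, 0.00236 to 0.344 over 22 alternatives).

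Dpt read 1445, 1575 and 875 in untreated PKBa -/- cells and 400.1, 455 and 352 at 4 h, and in R 1404, 1436 and 2744 untreated and 938, 736 and 1114 at 4 h. Its response was -1.30 ± 0.29 in the 18-array fit (adjusted p = 0.021, 0.0108 to 0.127 over 22 alternatives). Mpped2 read 387, 461 and 311 in untreated PKBa -/- cells and 266, 308 and 274 at 4 h, and in R 398, 607 and 605 untreated and 271, 283 and 263 at 4 h. Its response was -0.69 ± 0.16 (adjusted p = 0.024, 0.02 to 0.155), and its second probe set gave -0.91 ± 0.19 (adjusted p = 0.025 over all probe sets). For these 4 genes the 4 h arrays lay below the untreated arrays in both lines, a pattern that 6.35% of all genes had, and the reverse was found for 0 of 17 genes against 3.91% of all.

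At 24 h after irradiation 0 of 17 genes were called against untreated cells, beside 0.0495% of all genes. The smallest adjusted p of the 17 in limma was 0.70, and 0 had an unadjusted p below 0.05 (1 in the 18-array fit). A comparison of 24 h with 4 h was added after the data had been seen, and it shares the 4 h arrays with the comparison above. In it Mfap4 was called higher by 1.69 ± 0.43 (adjusted p = 0.029), beside 4.69% of all genes. In the 18-array fit Mfap4, Dpt (1.32 ± 0.29, adjusted p = 0.026) and Tent5a (1.07 ± 0.13, adjusted p = 0.0015) were called, beside 3.97%.

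The response to irradiation was not found to differ between R and PKBa -/- for any of the 17 genes. At 4 h 0 were called, beside 0% of all genes, and at 24 h 0 were called, beside 0.0055%, with 0 of 17 at an unadjusted p below 0.05 in limma at either time and in either fit. The differences of responses ran from -0.52 (Mpped2) to 0.70 (Dpt) at 4 h and from -0.30 (Slc5a7) to 0.79 (Dpt) at 24 h. Their standard errors in the 18-array fit were 0.19 to 0.63, so a difference of the size of the Mpped2 response could have been missed.

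In WT, 3 of 17 genes were called at 4 h, all lower, beside 3.25% of all genes (1.74% lower), and they were Dpt, Tent5a and Mfap4. Dpt read 40.5, 57.2 and 116 in untreated WT cells and 37.0, 6.27 and 5.74 at 4 h (adjusted p = 0.022, 0.00273 to 0.383 over 15 alternatives). Tent5a read 23.9, 14.0 and 13.7 and then 1.28, 0.674 and 6.71 (adjusted p = 0.013, 0.00179 to 0.352). Mfap4 read 21.2, 39.5 and 7.48 and then 5.72, 3.46 and 2.89 (adjusted p = 0.048, 0.0227 to 0.353). Only Dpt read above background on any of these arrays (2 of 3 untreated), so no fold is given. With 16 added to each intensity, which damps differences among dim values, 0 of the 3 were called (smallest adjusted p 0.0568), and on the 6 compared arrays alone 0 were (0.352). Leaving out replicate 1 at 4 h also left 0 (0.0585). At 24 h in WT 0 of 17 were called, beside 0.0495% of all genes, with 1 of 17 at an unadjusted p below 0.05 in limma.

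**Figure D5:**
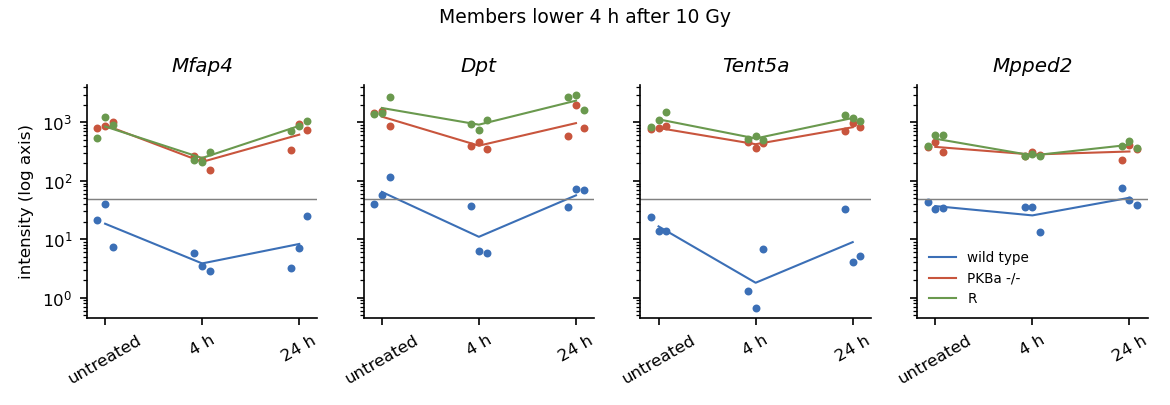
Intensity (log axis) of Mfap4, Dpt, Tent5a and Mpped2 by time, with 3 points per group and lines through the geometric means, in WT (blue), PKBa -/- (red) and R (green); the grey line is background. The 4 h points of PKBa -/- and R lie below the untreated points of their line in each panel, and the WT points are near or below background.

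Genes that write, keep or read repressive marks are not among the 17, and their levels in untreated cells were compared between the lines. Of 15 measured genes of DNA methylation, 3 were higher and 2 lower in PKBa -/- than in WT, and 2 were higher and 2 lower in R. The background was 17.6% of all genes called for PKBa -/- (7.77% higher, 9.83% lower) and 18.8% for R (9.39% in each direction). These comparisons share the untreated WT arrays. Mbd1, a reader of methylated CpG, read 1916 in WT, 856 in PKBa -/- and 815 in R, and was lower in both lines (-1.16 ± 0.12 and -1.23 ± 0.12, adjusted p = 8.2e-07 and 3.6e-07). Dnmt3a, which sets new CpG methylation, read 1089, 316 and 426 (-1.78 ± 0.42 and -1.35 ± 0.42, adjusted p = 0.0043 and 0.027). Uhrf1, which guides maintenance methylation, read 2533, 4431 and 3923 and was higher (0.81 ± 0.14 and 0.63 ± 0.14, adjusted p = 0.00025 and 0.0024).

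Of 32 measured genes of the Polycomb complexes and of H3K9 methylation, 1 was higher and 2 lower in PKBa -/- than in WT, and 3 were higher and 1 lower in R. Cbx8, a Polycomb reader, read 219 in WT, 112 in PKBa -/- and 136 in R (-0.97 ± 0.20 and -0.69 ± 0.20, adjusted p = 0.0017 and 0.021). Eed, a core subunit of the complex that methylates H3K27, read 1680.3, 2328 and 2519 (0.47 ± 0.15 and 0.58 ± 0.15, adjusted p = 0.039 and 0.010). Most genes of both lists were above background in each line. Of 22 measured germline genes known to be held off by methylation, 17 were at or below background in all lines, none had the pattern of the 17 genes and 2 had the opposite one. Of 41 measured imprinted genes none had the pattern and 2 had the opposite one. Over all genes those shares were 0.132% (24 genes, with those left out by name) and 0.742%, so a count of 0 in lists of this size says little. Of the imprinted genes 2 were higher and 8 lower in PKBa -/- than in WT, and 3 were higher and 7 lower in R, and of the germline genes 1 was higher and 2 lower in each.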

How the data were processed

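Total RNA, isolated with TRIZOL, was put on Affymetrix arrays, per the labels' protocols. The authors deposited 1 table of linear intensity values for 45101 probe sets on 27 arrays, with a mean of 500.003 on each array after trimming 2% at each end. RMA and GCRMA are named in the submitters' processing notes, but the linear values with unequal medians are not the form of either, so the summary method is not known. The build behind the deposited values is not given in the sources used here, and GRCm38.p6 is that of the RefSeq promoter table.

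Intensities were taken to log2 without an offset or further normalization. After leaving out 64 control probe sets, the 34945 probe sets with 1 gene symbol gave 18193 genes, with the probe set of highest mean taken for each. Between 10577 and 11682 genes per array were above background, and 15 of the 17 members were above the median level of all genes. A limma model (limma 3.58.1, R 4.3.3) of 9 group means gave the differences (18 residual degrees of freedom), with Benjamini-Hochberg adjustment within each contrast, two-sided. The fit was first tested on simulated data. The number of arrays limits the precision.

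The members and the gene lists were chosen with earlier results of these data known. The rule for naming genes took all members called in a contrast up to 8 or 6 per direction, the 16 members with the highest lower mean of PKBa -/- and R, the 3 genes on each side of each limit, and up to 4 genes of each silencing list by smallest p. Alternatives were other limits for the choice of genes, a replicate block, fits without the arrays not compared, a prior variance with intensity trend, 16 added to each intensity, only genes above the median level, scaling by quantiles or to equal medians, averaged probe sets per gene, and leaving out the 5 arrays or each array in turn. The fit on 18 arrays for the irradiation contrasts, the comparison of 24 h with 4 h and the alternatives for WT at 4 h were added after the data had been seen. Promoter windows were matched by gene identifier.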

Additional observations from a re-analysis of the deposited data

How the results depend on the processing

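The rule found 17 genes, 9 with limits of 40 and 400 and 28 with limits of 60 and 250. With other scalings, the mean of all probe sets or without the 5 arrays it found 14 to 19, and leaving out 1 array gave 15 to 18. For R minus PKBa -/- the count of 3 called genes became 5 with an intensity trend, among genes above the median level and without the 5 arrays, and 8 with the offset of 16 and on the 18 compared arrays. Leaving out 1 array gave 2 to 4. For 4 h minus untreated in PKBa -/- and R the count of 1 became 2 with an intensity trend, above the median level (where Mfap4 was not held) and without the 5 arrays, and 4 with the offset, on the compared arrays and on the 18 arrays. Leaving out 1 array gave 1 to 2, with 2 without replicate 0 of untreated R. For WT at 4 h the count of 3 became 5 with an intensity trend and 0 with the offset and on the compared arrays, and leaving out 1 array gave 0 to 3. Why these counts moved was not tested. The counts of 0 for 24 h and for both differences of responses were 0 under every alternative run. Replicate numbers were not used to pair the samples in the main fit. With the number as a block the counts were 4, 1, 0, 0 and 0 for the 5 contrasts of PKBa -/- and R and 2 for WT at 4 h (Mfap4 lost, adjusted p = 0.0567), and for R minus PKBa -/- 2 of the 4 were shared, with Dpt lost (0.0665) and Slc5a7 (0.0445) and BC028528 (0.0318) gained. Of the arrays, 14 of 27 arrays correlated best with their own number (108 same-number pairs, r from -0.79 to 0.83, median 0.03). No chance level was set beside that count, so it does not decide whether arrays of the same number were handled together. Equal array medians moved the median of all genes for R minus PKBa -/- from 0.06 to -0.09.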
